A study of Mus musculus with 5 samples.

Results

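Serpina1a, Serpina1b, Serpina1c, Serpina1d, Serpina6, Fga, Fgb, Plg, C3 and Orm1 encode proteins of the blood plasma, several of which belong to the acute-phase response. The 10 genes were chosen by symbol, with their difference between the groups already known, and all 10 were found among the 4743 genes listed in each table. RNA was sequenced from forelimb muscle of C57BL/6 mouse embryos at stage E15.5, with 3 libraries from Noggin-deficient and 2 from wild type embryos. Noggin is a secreted antagonist of bone morphogenetic proteins (BMPs). The labels give no allele, no sex and no litter. They do not say whether a library came from 1 embryo or a pool, so any p-value measures only the spread between these libraries, which may be technical.

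Plasma proteins of this kind are made mainly by hepatocytes, the main cells of the liver, and are secreted into the circulation. In the acute-phase response, interleukin-6 acting through STAT3, together with glucocorticoids, raises the production of several of them. In the fetus the liver is also the main site of blood formation. Skeletal muscle is not known as a main source of any of the 10.

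Each value is a non-negative expression signal with 2 decimals, in a unit the sources used here do not name, and the number of reads behind it is unknown. The smallest non-zero value was 0.01 in every library. The sum of all listed values was 92210 to 93695 per Noggin-deficient library and 100792 to 102783 per wild type library. Noggin's own gene, Nog, was at 0.49, 0.42 and 0.42 in the Noggin-deficient libraries, against 2 and 1.99 in the wild type libraries. Muscle markers were high in all 5 libraries. Acta1, of skeletal muscle actin, was at 1580 to 1629 in the Noggin-deficient and 2335 to 2357 in the wild type libraries. The tables hold genes that nearly all differ between these same groups. For 98.2% of the listed genes every Noggin-deficient library lay on the same side of both wild type libraries.

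The 5 Serpina1 copies listed (Serpina1e in addition to the 4 above) encode mouse alpha-1-antitrypsins, which inhibit serine proteases through an exposed reactive centre loop. The copies are shown here because they are so alike that reads can be hard to assign among them. Below is the stretch of 81 coding bases that begins at the hinge of that loop, from the GENCODE M21 transcripts (GRCm38), 5′ to 3′. Capitals mark the 18 positions at which the 5 copies are not all the same.

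Serpina1a: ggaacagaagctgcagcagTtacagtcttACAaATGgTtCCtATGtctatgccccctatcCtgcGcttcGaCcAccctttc

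Serpina1b: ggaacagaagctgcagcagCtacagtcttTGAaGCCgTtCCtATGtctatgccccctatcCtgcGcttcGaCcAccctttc

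Serpina1c: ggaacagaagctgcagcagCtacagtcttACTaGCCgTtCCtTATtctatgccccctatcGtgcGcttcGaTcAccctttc

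Serpina1d: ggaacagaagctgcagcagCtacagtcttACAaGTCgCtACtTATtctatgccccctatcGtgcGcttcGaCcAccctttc

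Serpina1e: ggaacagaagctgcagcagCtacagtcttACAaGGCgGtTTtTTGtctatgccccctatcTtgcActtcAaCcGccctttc

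Any pair of copies differed at 5 to 12 of these bases. Over the whole coding sequence the 10 pairs of copies were 96.3% to 98.5% identical, leaving out overhanging ends. Within the stretch, Serpina1c and Serpina1d were the closest pair of copies, with 5 differing bases, and Serpina1a and Serpina1b differed at 6. Of all 50-base windows of the coding sequence, 70.8% in Serpina1a, 44.7% in Serpina1b, 74.7% in Serpina1c and 51% in Serpina1d also occur in another copy. The sources used here do not say how such reads were counted, so the split of the signal among the copies is uncertain. Serpina6, Fga and Fgb shared no 50-base window with the relatives they were compared with (Serpina1b for Serpina6, and the other fibrinogen chain genes for Fga and Fgb).

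All 4 Serpina1 genes had a signal in the Noggin-deficient tissue and were listed at 0 in both wild type libraries. Serpina1b was at 4.69, 5.12 and 4.94 in the Noggin-deficient libraries, against 0 and 0 in the wild type libraries. Serpina1c had 3.19, 3.48 and 3.5 in the Noggin-deficient libraries, against 0 and 0 in the wild type libraries. Serpina1a had 2.51, 2.72 and 2.59 in the Noggin-deficient libraries, against 0 and 0 in the wild type libraries. In all of these the groups were apart, and the Noggin-deficient libraries lay close together.

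Serpina1d was the lowest of the 4, with 2.1, 1.95 and 2.08 in the Noggin-deficient libraries, against 0 and 0 in the wild type libraries. No fold change is given for these genes, since both wild type libraries are listed at 0. If values are not per length and shared reads were kept, the sum over the copies does not depend on the split among the 4. Neither condition is known to hold. The sum came to 12.5, 13.3 and 13.1 in the Noggin-deficient libraries, against 0 and 0 in the wild type libraries. With Serpina1e added it was 14.92, 15.47 and 15.75 in the Noggin-deficient libraries, against 0 and 0.03 in the wild type libraries. The coefficients of variation of the values of the single copies were 3.99% to 5.12% in the Noggin-deficient libraries. Within the sum of 4, the shares had SDs from 0.351 (Serpina1a) to 1.05 (Serpina1d) percentage points there. Serpina1b made up 37.6% to 38.6%, Serpina1c 25.5% to 26.7%, Serpina1a 19.8% to 20.5% and Serpina1d 14.7% to 16.8% of it in the Noggin-deficient libraries. These are shares of the deposited signal, which is not known to be per length.

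Serpina6 encodes corticosteroid-binding globulin, the carrier of glucocorticoids in plasma and a serpin that does not inhibit proteases. It was at 4.59, 4.69 and 4.78 in the Noggin-deficient libraries, against 0.02 and 0 in the wild type libraries. Its spread among the Noggin-deficient libraries was the smallest of the 9 genes that were higher there, with a coefficient of variation of 2.03%. The log2 difference of Serpina6, on the log2(value + 0.25) scale used for all log2 differences here, was 4.25 (SE 0.0796). With wild type values at the edge of the 2 decimals it follows the pseudocount, and it was 5.45 with a pseudocount of 0.1 and 2.49 with a pseudocount of 1.

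**Figure D1:**
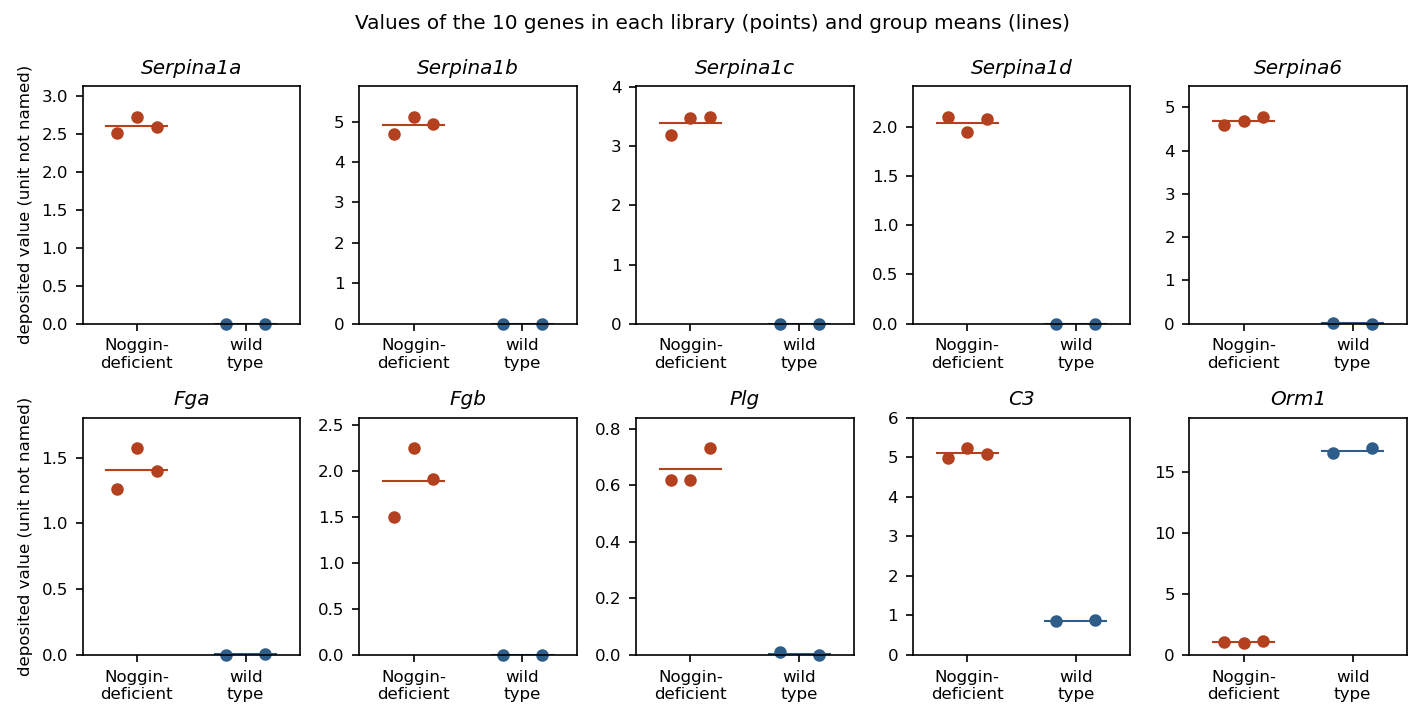
Deposited values (vertical axes, unit not named, each starting at 0) of the 10 genes in 3 Noggin-deficient and 2 wild type libraries; points are libraries and lines are group means. The groups are apart for every gene, with 9 genes higher in the Noggin-deficient libraries and Orm1 lower (1.02 to 1.11 against 16.59 to 16.93).

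Fibrinogen, the protein of the blood clot, is built from 3 kinds of chain, of which Fga and Fgb encode the alpha and beta chains. Fgb was at 1.5, 2.24 and 1.91 in the Noggin-deficient libraries, against 0 and 0 in the wild type libraries. Fga had 1.26, 1.57 and 1.4 in the Noggin-deficient libraries, against 0 and 0.01 in the wild type libraries. Both were lowest in the first and highest in the second Noggin-deficient library, and the groups were apart for each.

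The log2 difference of Fga was 2.70 (SE 0.115), or 3.84 and 1.26 with pseudocounts of 0.1 and 1. Fgb varied most of the 10 among the Noggin-deficient libraries, with a coefficient of variation of 19.7%, against 11% for Fga. Fgg, of the gamma chain, was at 1.27, 1.45 and 1.66 in the Noggin-deficient libraries and 0.02 in both wild type libraries. All 3 chains were thus lowest in the first Noggin-deficient library. Plg encodes plasminogen, the precursor of the clot-dissolving protease plasmin. Its values were 0.62, 0.62 and 0.73 in the Noggin-deficient libraries, against 0.01 and 0 in the wild type libraries. That is the lowest level of the 9 higher genes on the deposited scale. The log2 difference of Plg was 1.83 (SE 0.118), and 2.85 and 0.72 with pseudocounts of 0.1 and 1.

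C3 encodes the central component of the complement cascade and is made by several cell types outside the liver as well. It differed from the 8 genes above in having a clear signal in wild type tissue. C3 was at 4.98, 5.22 and 5.08 in the Noggin-deficient libraries, against 0.85 and 0.88 in the wild type libraries. The ratio of the group means was 5.89, and the log2 difference was 2.26 (SE 0.0593). It lay between 1.71 and 2.57 under all settings run.

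Orm1 went the other way. It encodes alpha-1-acid glycoprotein, or orosomucoid, a drug-binding plasma protein of the acute phase. Orm1 was at 1.06, 1.02 and 1.11 in the Noggin-deficient libraries, against 16.59 and 16.93 in the wild type libraries. Its mean was 15.8-fold lower in the Noggin-deficient libraries, with a log2 difference of -3.70 (SE 0.056) that lay between -4.13 and -3.11 under all settings run. Orm2, a paralog that lies close by on chromosome 4 and whose coding sequence is 89.9% identical, was at 0.06, 0.09 and 0 in the Noggin-deficient libraries and 0.53 and 0.62 in the wild type libraries. Of the 50-base coding windows of Orm1, 9.79% also occur in Orm2 or Orm3, a smaller share than in any of the Serpina1 copies.

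Of the 10 genes, 9 were higher in every Noggin-deficient library than in either wild type library and 1, Orm1, was lower in every one. Of all 4743 listed genes, 41.2% were higher and 57.1% lower without overlap. Since the 10 were chosen for this difference, the count is a description and nothing is read from it. Listed at 0 in both wild type libraries were 5 of the 10, at 0 in 1 of them were 3 (Serpina6, Fga and Plg), and C3 and Orm1 were non-zero in both. Among all listed genes 57 were at 0 in both wild type libraries. Of the 10 genes 8 passed the minimum set for testing (0.5 in at least 2 libraries) only through the Noggin-deficient libraries, and 2 through both groups.

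**Figure D2:**
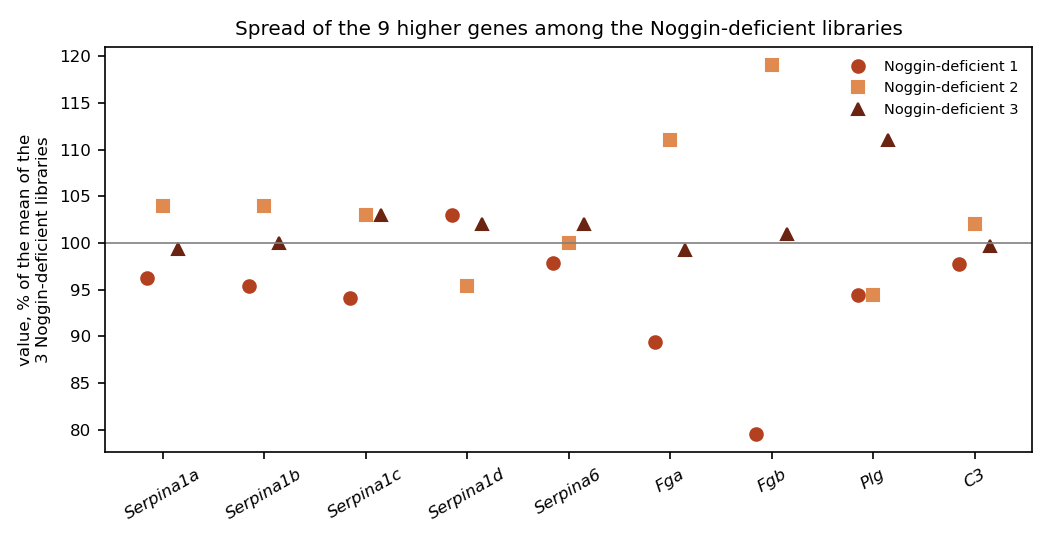
Value of each of the 9 higher genes in each Noggin-deficient library, as a percentage (vertical axis) of the mean of the 3. Fgb spans 79.6% to 119% and Fga 89.4% to 111%, while Serpina6 stays within 97.9% to 102%.

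The genes of the set lie on 4 chromosomes. In RefSeq's order of genes on GRCm38.p6, Serpina6, Serpina1b, Serpina1d, Serpina1a and Serpina1c lie in a serpin cluster on chromosome 12. From Serpina10 to Serpina3n that cluster spans 41 annotated genes and pseudogenes, of which 11 were in the tables. The 7 listed on the side of Serpina10, Serpina6 and the Serpina1 copies were all higher in the Noggin-deficient libraries. The 4 listed on the other side, all of the Serpina3 group, were all lower there. Serpina3j, the most abundant of these 4 on the deposited scale in wild type tissue, was at 0.4, 0.42 and 0.38 in the Noggin-deficient libraries, against 8.11 and 7.93 in the wild type libraries. Fgg, Fga and Fgb lie side by side on chromosome 3, with 1 further annotated gene between Fga and Fgb. Orm1 and Orm2 lie together on chromosome 4, and Plg and C3 on chromosome 17.

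All listed serpins, those above included, are given here by clade, the letter in the symbol. Clade a holds mostly secreted plasma serpins, and clade b the mainly intracellular ones, several of which are known from epidermis. Of the 30 listed serpin genes, 13 were higher and 17 lower in every Noggin-deficient library, shares close to the 41.2% and 57.1% of all listed genes. Clade a had 7 higher and 4 lower of 11, clade b 0 higher and 13 lower of 13, and clades c to i together 6 higher and 0 lower of 6. This grouping was made after the values had been seen. Serpinb7 was among the lower ones, with 2.62, 2.57 and 2.55 in the Noggin-deficient libraries and 9.98 and 10.19 in the wild type libraries, and was picked as an example once its values were known.

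**Figure D3:**
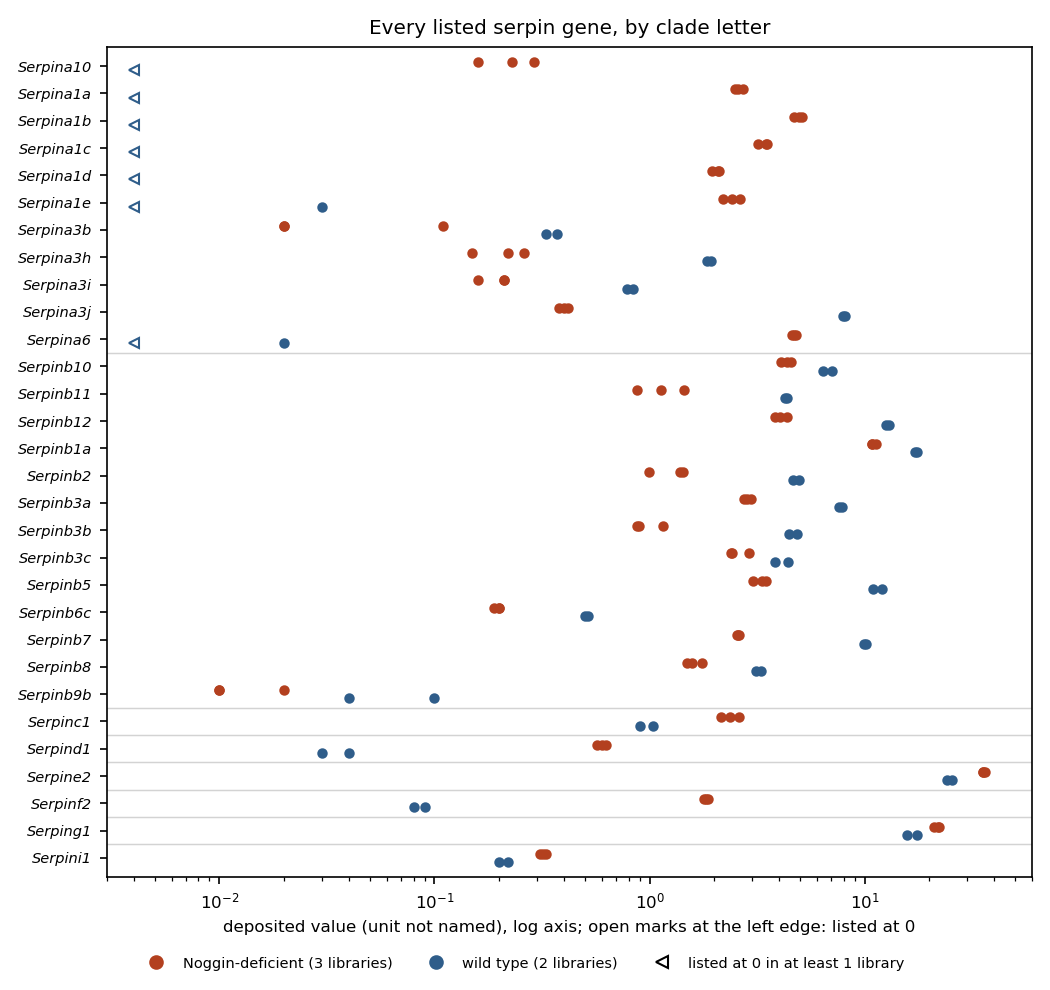
Deposited values (horizontal log axis, unit not named) of the 30 listed serpin genes in each library, grouped by clade letter; open marks at the left edge stand for a value of 0. All 13 genes of clade b and the 4 Serpina3 genes lie lower in the Noggin-deficient libraries, and the other 13 lie higher.

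The sequences before the start sites were read because most of the set were higher in the same libraries and liver genes share known regulators. Of the 10 genes, 7 had an entry in RefSeq's promoter table (GRCm38.p6). The submitters' processing notes name mm9 and the tables carry no coordinates, so the promoters were matched by symbol. Below are the 100 bases before each annotated start, 5′ to 3′ on the gene's strand. Capitals mark matches, on either strand, to a half-site of HNF1, a hepatocyte transcription factor (GTTAAT), to a C/EBP site (TTGCNNAA), to a STAT3 site (CTGGGAA) or to a TATA box (TATAAA).

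Serpina1a, chr12:103863620-103863719, minus strand: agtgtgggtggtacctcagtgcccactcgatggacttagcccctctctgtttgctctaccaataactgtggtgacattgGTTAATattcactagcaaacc

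Serpina1b, chr12:103738190-103738289, minus strand: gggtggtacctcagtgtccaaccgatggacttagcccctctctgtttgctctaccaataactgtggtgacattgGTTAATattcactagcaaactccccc

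Serpina1c, chr12:103904951-103905050, minus strand: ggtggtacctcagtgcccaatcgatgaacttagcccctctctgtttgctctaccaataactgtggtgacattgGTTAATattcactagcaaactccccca

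Serpina1d, chr12:103773634-103773733, minus strand: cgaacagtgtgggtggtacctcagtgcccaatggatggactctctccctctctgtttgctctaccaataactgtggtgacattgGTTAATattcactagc

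Fga, chr3:83026053-83026152, plus strand: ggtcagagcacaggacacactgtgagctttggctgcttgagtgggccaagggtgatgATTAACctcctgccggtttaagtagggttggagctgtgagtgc

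Fgb, chr3:83049864-83049963, minus strand: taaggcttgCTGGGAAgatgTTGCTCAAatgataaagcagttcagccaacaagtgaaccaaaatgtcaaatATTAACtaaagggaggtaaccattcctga

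C3, chr17:57228137-57228236, minus strand: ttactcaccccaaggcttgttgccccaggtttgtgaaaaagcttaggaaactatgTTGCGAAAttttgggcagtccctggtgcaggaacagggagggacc

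In the 250 bases before the start, the HNF1 half-site was present in 6 of the 7 promoters, all but C3, and in 6.43% of all 32851 promoters of the table. In the 4 Serpina1 genes of the set it lay at 11 to 27 bases before the annotated start, in Fgb at 24 to 29 and in Fga at 38 to 43. In the further copy Serpina1e it lay at 73 to 78 bases before the annotated start, and Fgg and Orm2 had no HNF1 match. The 4 Serpina1 promoters are copies of one another (91.6% to 97% identical over the 5 copies' pairs), so they do not count as separate cases. A C/EBP match was present in 5 of the 7 (Serpina1b, Serpina1d, Fga, Fgb and C3), and in 9.56% of all promoters. The STAT3 letters occurred in 1, Fgb (9.1% of all promoters), and the TATA letters in 0 (12.4% of all promoters). Outside the set, Serpina1e, which was higher, had a C/EBP match, and Fgg, also higher, had a STAT3 match only. Orm2, which was lower, had a C/EBP match and the TATA letters. No match overlapped a match of another motif. A match is a run of letters and not a shown binding site.

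**Figure D4:**
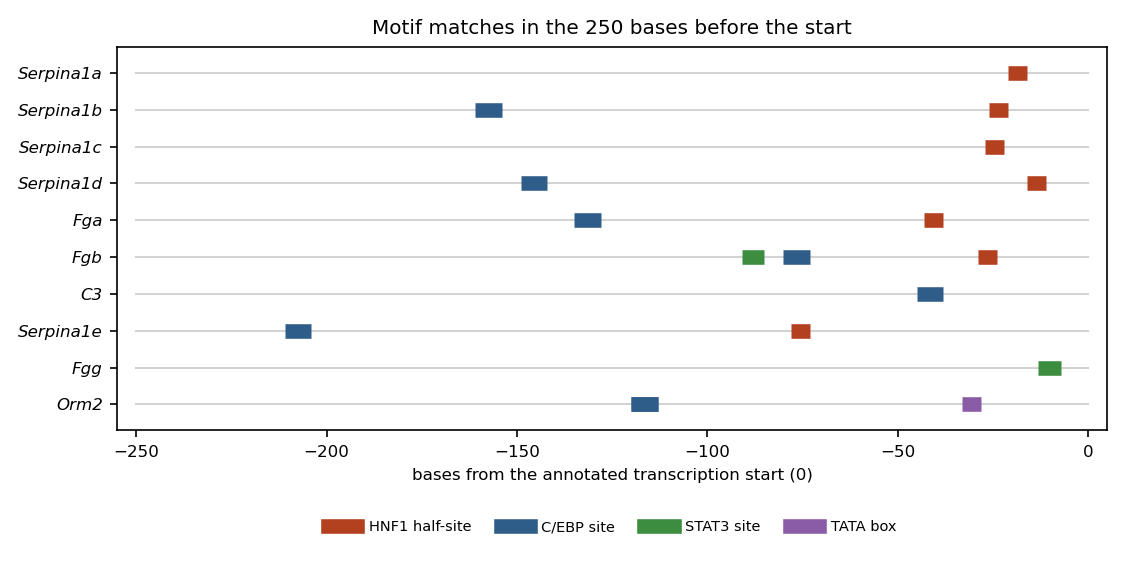
Position of each motif match (coloured blocks) in the 250 bases before the annotated start (horizontal axis, bases from the start at 0) for the 7 genes with a promoter entry and for the paralogs and partner genes Serpina1e, Fgg and Orm2. The HNF1 half-site lies within 43 bases of the start in 6 of the 7, and C3 has a C/EBP match only.

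Other genes of the same pathways were tested with limma across all 3913 listed genes that passed the minimum value. Of those, 98% were called, 37.9% as higher and 60.1% as lower in Noggin-deficient tissue, with a median log2 difference of -0.28. A called gene is therefore the rule in these tables, and counts over a list mean little beyond their direction. Scaling by median-of-ratios factors shifted that median by 0.26 and removal of a trend on transcript length by 0.28. The share of calls that were higher was 38.7%, against 54.5% and 48.2% under those settings and 48.4% with upper-quartile scaling. Where a median-of-ratios scaling or the removal of the length trend moved a named value by over 1.5 times or ended its call, that value follows it. A gene that reached the minimum in the Noggin-deficient libraries only was tested because it was high there. Its direction was thereby fixed, so such genes are described with no p-value and their number is given for each list. The lists were written with earlier results of these data known.

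Serpina1e, the remaining listed antitrypsin copy, was higher in the Noggin-deficient libraries and reached the minimum in those only. It was at 2.43, 2.2 and 2.64 in the Noggin-deficient libraries, against 0 and 0.03 in the wild type libraries, a log2 difference of 3.33 (SE 0.109). Serpina1f was looked up and not found by that symbol among the listed genes.

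Most coagulation and fibrinolysis genes were higher in the Noggin-deficient libraries. Of 35 on the list besides the 10 genes, 19 were in the tables and 11 were tested, of which 9 rose and 2 fell, with a median log2 difference of 0.69. Of the 9 that rose, 4 reached the minimum in the Noggin-deficient libraries only, Fgg, Kng1 and Serpinf2 among them. The 8 not tested were all higher in every Noggin-deficient library, at low values. The log2 difference of Fgg was 2.66 (SE 0.122). Kng1, of the kininogens, averaged 1.16 ± 0.0808 in the Noggin-deficient libraries (SD, n = 3) and was 0.01 in both wild type libraries. Serpinf2, of alpha-2-antiplasmin, the inhibitor of plasmin, averaged 1.83 ± 0.0451 in the Noggin-deficient libraries (SD, n = 3) and 0.085 ± 0.00707 in the wild type libraries (SD, n = 2), a log2 difference of 2.64. Serpine2, a protease inhibitor with wide expression outside the liver, rose by 0.53 (0.80 with median-of-ratios factors). The 2 that fell, named after their values were seen, were F3, of tissue factor, and Thbd, of thrombomodulin, both of which act on cell surfaces. F3 was at 4.9, 4.67 and 4.61 in the Noggin-deficient libraries, against 6.89 and 7.5 in the wild type libraries, a log2 difference of -0.58 (-0.32 with median-of-ratios factors). Thbd had 8.53, 8.12 and 8.36 in the Noggin-deficient libraries, against 10.92 and 11.3 in the wild type libraries, a log2 difference of -0.40 (-0.14 with median-of-ratios factors and -0.19 with the length trend removed).

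The tested acute-phase protein genes were higher in the Noggin-deficient libraries apart from Orm2. Of 31 on the list 13 were in the tables and 11 were tested, of which 10 rose and 1, Orm2, fell, with a median log2 difference of 0.74 (1.25 with median-of-ratios factors). Of the 10 that rose, 5 reached the minimum in the Noggin-deficient libraries only, Itih2 and Itih3 among them, and Orm2 reached it in the wild type libraries only. Fgg, also on the coagulation list, was among those 5. Itih2, of an inter-alpha-trypsin inhibitor heavy chain, averaged 1.56 ± 0.0551 in the Noggin-deficient libraries (SD, n = 3) and 0.065 ± 0.0495 in the wild type libraries (SD, n = 2), and Itih3, of a related chain, had a log2 difference of 1.98. Mt2, of a metallothionein, rose by 0.61, which became 0.03 with the length trend removed (limma adjusted p = 0.448). With that trend removed 8 rose and 1 fell, and with median-of-ratios factors 10 rose and 0 fell, Orm2 then lying below the minimum for testing.

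The signalling genes of the acute-phase response did not rise with the proteins. Of 19 on the list 7 were in the tables and tested, and 0 rose and 7 fell, with a median log2 difference of -0.40. That median was -0.14 when median-of-ratios factors were used and -0.08 with the length trend removed, where 0 rose and 3 fell, and 1 rose and 3 fell, in that order of settings. Tnf, counted among the 7 and among the 3 that fell under each of those settings, reached the minimum in the wild type libraries only. Its direction was thereby fixed. Stat3 averaged 17.6 ± 0.305 in the Noggin-deficient libraries (SD, n = 3) and 24.2 ± 0.163 in the wild type libraries (SD, n = 2), a log2 difference of -0.45, which was -0.18 and -0.11 under those settings. Il6st, the shared signal-transducing receptor chain, had a log2 difference of -0.25, which turned to 0.02 and 0.15 under them, the second of which was called a rise (limma adjusted p = 0.00469). Nr3c1, of the glucocorticoid receptor, had -0.31, which was -0.04 and 0.04, and Il1r1, an interleukin-1 receptor, had -0.30, which was -0.04 and 0.03. Against a change of 1.5-fold none of these 4 passed (limma adjusted p = 1 each).

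The tested complement genes mostly rose, by less than C3. Of 41 on the list besides C3, 15 were in the tables and 10 were tested, of which 8 rose and 2 fell, with a median log2 difference of 0.40 (0.64 with median-of-ratios factors). Of the 8 that rose, 1 reached the minimum in the Noggin-deficient libraries only. The 5 not tested were all higher in every Noggin-deficient library, at low values. Among them Cfi was at 0.44, 0.42 and 0.48 in the Noggin-deficient libraries, against 0.02 and 0.01 in the wild type libraries. Its ratio of group means was 29.8, above the 5.89 of C3. Clu, of the complement inhibitor clusterin, rose by 0.53 and Serping1, of the C1 inhibitor, by 0.38. With median-of-ratios factors Clu was at 0.80 and Serping1 at 0.65, and with the length trend removed Serping1 was at 0.23. C6, of the membrane attack complex, fell by 0.84 and Cd55, of a cell surface inhibitor of complement, fell by 0.56 (-0.30 with median-of-ratios factors). None of these 4 passed against a change of 1.5-fold (limma adjusted p from 0.101 to 1).

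Of the other serpins listed by name, 13 were tested and 5 rose and 8 fell, with a median of -0.65 (-0.38 with median-of-ratios factors), and 2 of the 5 reached the minimum in the Noggin-deficient libraries only. All 5 are also on the coagulation or complement list, so they are not separate observations. Serpinb5 averaged 3.29 ± 0.225 in the Noggin-deficient libraries (SD, n = 3) and 11.5 ± 0.757 in the wild type libraries (SD, n = 2). Serpinb12 and Serpinb3a had log2 differences of -1.59 and -1.36. Of genes for receptors, targets and ligand metabolism of these proteins, 8 were tested, of which 3 rose and 5 fell (median -0.35; with median-of-ratios factors 3 rose and 2 fell, and it was -0.08). Mpo, of the neutrophil granule enzyme myeloperoxidase, had a log2 difference of 1.83 and was 1 of 2 genes here that reached the minimum in the Noggin-deficient libraries only. These 2 are also on the myeloid marker list, and Nr3c1 is counted here as well as among the signalling genes. Hsd11b1, of the enzyme that regenerates active glucocorticoid in tissues, was at 1.21, 0.95 and 1 in the Noggin-deficient libraries, against 2.84 and 2.97 in the wild type libraries. Itgb3, of an integrin chain of the fibrinogen receptor, had a log2 difference of -0.38, which was -0.12 (limma adjusted p = 0.0558) under median-of-ratios scaling and -0.05 (limma adjusted p = 0.399) with the length trend removed.

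**Figure D5:**
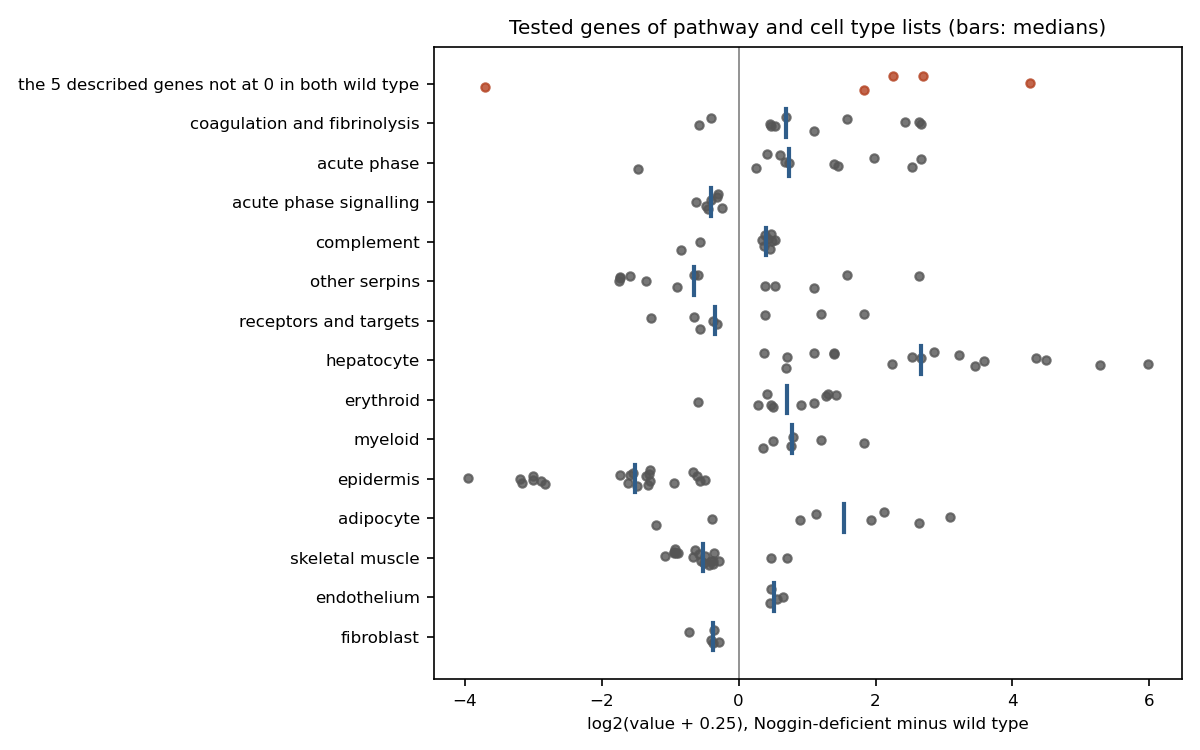
Difference of log2(value + 0.25), Noggin-deficient minus wild type (horizontal axis), for each tested gene of each list with more than 1 tested gene (grey points, blue bars at the list medians) and for the 5 described genes that are not at 0 in both wild type libraries (red points); genes at 0 in both wild type libraries have no point. Of the lists shown the hepatocyte list has the highest median, drawn without its 2 genes at 0 in both wild type libraries (2.66), and the epidermis list the lowest (-1.52); Orm1 at -3.70 lies among the lowest epidermis genes.

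Markers of liver cells were higher in the Noggin-deficient libraries, in the direction of the 9 higher genes. Of 30 hepatocyte markers 22 were in the tables and 19 were tested, and 19 rose and 0 fell, with a median log2 difference of 2.53 (2.66 without the 2 tested genes that are at 0 in both wild type libraries). Of the 19, 13 reached the minimum in the Noggin-deficient libraries only, and 6 in both groups. Those 6 were Afp (5.28), Trf (1.39), Serpinc1 (1.10), Rbp4 (0.70), F2 (0.69) and Vtn (0.37), with the log2 difference in brackets. With median-of-ratios factors Vtn was at 0.62, and with the length trend removed Vtn was at 0.21 and Rbp4 at 0.40. The summed level of the listed hepatocyte markers was 144 to 145 in the Noggin-deficient libraries and 19.5 to 20.7 in the wild type libraries. Several of these markers are also on the coagulation and acute-phase lists. Alb, of albumin, was at 40.24, 39.22 and 39.11 in the Noggin-deficient libraries, against 0.39 and 0.37 in the wild type libraries. Afp encodes alpha-fetoprotein and Trf transferrin, which other tissues also make. No hepatocyte marker was at 0 in the Noggin-deficient libraries, while Fabp1, Gc and Itih1 were at 0 in both wild type libraries and Ahsg and Ambp in 1 of them. Ttr, of transthyretin, averaged 4 ± 0.266 in the Noggin-deficient libraries (SD, n = 3) and was 0.14 in both wild type libraries. Hnf4a, of a hepatocyte transcription factor, was at 0.2, 0.25 and 0.21 in the Noggin-deficient libraries, against 0.03 and 0.01 in the wild type libraries. The part of liver cells or their RNA in the levels of the 9 genes was not tested. In bulk tissue, more cells of a type and more RNA per cell cannot be told apart.

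Most blood cell markers tested also rose. Of 20 erythroid markers 10 were in the tables, of which 9 rose and 1, Sptb, of a spectrin that muscle also makes, fell, with summed levels of 225 to 232 in the Noggin-deficient libraries and 98.8 to 103 in the wild type libraries. Hbb-y and Hba-x, both embryonic globin genes, rose by 1.42 and 0.91, or by 0.92 and 0.48 with the length trend removed. Of the 9 that rose, 3 reached the minimum in the Noggin-deficient libraries only. Of 20 myeloid markers 7 were in the tables and 6 were tested and rose, 2 of them reaching the minimum in the Noggin-deficient libraries only, and with the length trend removed 4 were called. The summed levels of the 7 were 32.6 to 34.8 in the Noggin-deficient libraries and 20.7 in both wild type libraries. Cd68, S100a9 and S100a8 rose by 0.50, 0.79 and 0.76. With median-of-ratios factors Cd68 was at 0.77, and with the length trend removed it was at 0.22. With that trend removed S100a9 and S100a8 were at 0.22 and 0.17 and no longer passed (limma adjusted p = 0.139 and 0.316). Of 16 adipocyte markers, 12 were in the tables and 8 of these were tested. Of the 8, 6 rose (2 reaching the minimum in the Noggin-deficient libraries only), Gpd1 and Fabp4 by 2.63 and 1.13 (Fabp4 by 0.74 with the length trend removed), and 2 fell, Dgat2 with -1.20. The summed levels of the 12 were 230 to 235 in the Noggin-deficient libraries and 127 to 131 in the wild type libraries. Fabp4 alone averaged 171.6 and 78.3 in these groups. The 4 endothelial markers tested (Cldn5, Egfl7, Eng and Vwf) rose, with summed levels of 143 to 146 in the Noggin-deficient libraries and 97 to 99.9 in the wild type libraries. The part of these cells in the result was not tested.

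Epidermis markers fell, in the direction of Orm1. Of 27 epidermis markers 24 were in the tables and 22 were tested, and 0 rose and 22 fell, with a median log2 difference of -1.52. The summed level of the 24 was 1591 to 1661 in the Noggin-deficient libraries and 3916 to 3923 in the wild type libraries, with none of the 24 at 0 in either group. Krt10, Krt1 and Krtdap, of differentiating keratinocytes, had log2 differences of -1.58, -1.30 and -0.94 (Krtdap -1.54 with the length trend removed). Of 20 tested skeletal muscle markers 2 rose and 18 fell, Acta1, Myl1 and Myh3 with -0.55, -0.28 and -0.37. Under median-of-ratios scaling Acta1 was at -0.27, Myh3 at -0.10 and Myl1 at -0.01, and Myl1 no longer passed (limma adjusted p = 0.831). With the length trend removed Myl1 was at -0.61 and Myh3 at -0.03, and Myh3 no longer passed (limma adjusted p = 0.501). The 5 tested fibroblast markers fell, Col1a1, Col3a1 and Col1a2 with -0.41, -0.38 and -0.36, which became -0.14, -0.11 and -0.08 with median-of-ratios factors and -0.07, -0.06 and -0.04 with the length trend removed. Of the 5, 3 were still called under the first setting and 2 under the second, where none of the 3 collagen genes passed (limma adjusted p = 0.177, 0.177 and 0.344). Summed levels of the muscle markers were 4960 to 5197 in the Noggin-deficient libraries and 7156 to 7284 in the wild type libraries, and those of the fibroblast markers were 5503 to 5530 in the Noggin-deficient libraries and 7189 to 7294 in the wild type libraries. The part of epidermis in the level of Orm1 was not tested.

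The listed genes most alike to the set were sought by the Euclidean distance, over the 5 libraries, between log2(value + 0.25) centred on the wild type mean and the median profile of the 9 higher genes. The nearest was Serpina1e at a distance of 0.297, then Krt36, a keratin gene, at 0.317, Ttr at 0.331, Apoa2, of an apolipoprotein, at 0.392 and Adipoq, of adiponectin, at 0.439. Krt36 was at 4.79, 4.02 and 4.26 in the Noggin-deficient libraries, against 0.23 and 0.17 in the wild type libraries. Nearest to Orm1 was Serpina3j at 0.146, then Hrnr at 0.448, the unnamed transcript AK016107_gene at 0.81, Lce3f at 0.964 and Psca at 0.983. Hrnr, of the cornified layer of the skin, was at 1.19, 1.17 and 1.28 in the Noggin-deficient libraries, against 22.18 and 22.65 in the wild type libraries. With 2 groups of so few libraries, such a distance mainly measures the size of the difference between the groups.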

How the data were processed

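Per the labels' protocols, the RNeasy Micro kit was used for RNA, and stranded mRNA libraries were sequenced on an Illumina instrument. STAR 2.4.2a, DESeq2 and mm9 appear, with no role, in the submitters' processing notes. The deposited values are an expression signal with 2 decimals, and neither the file headers nor the labels name its unit or normalization. The listed genes nearly all differ between the groups, and the rule that chose them is not stated in those sources. The sources used here give no counter, annotation or depth, so no counting interval is given. The 10 genes and the lists were chosen with earlier results of these data known.

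Values were analysed as deposited, grouped by the genotype label. The 3913 genes that reached 0.5 in 2 or more libraries were fitted with limma 3.58.1 (R 4.3.3, intensity trend) on log2(value + 0.25); differences are Noggin-deficient minus wild type and no covariate was used. A Benjamini-Hochberg adjusted p under 0.05 was a call. The fit was tested on simulated data in which few genes changed, all upward. Here nearly all genes were called, in both directions, so that test does not show how the fit performs on these data. The pseudocount scale understates changes of low genes. The 10 genes, chosen for their difference, were given no test.

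Besides the 10 genes, the 4 called genes with the smallest p of each pathway list and the 3 most abundant of each marker list were named, except 1 marker that is not reported here. Identities, windows and motifs were computed with Biopython 1.88 from GENCODE M21 transcripts and RefSeq promoters. The longest transcript gave the length for 95.9% of tested genes.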

Additional observations from a re-analysis of the deposited data

How the results depend on the processing

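The groups did not overlap for any of the 10 genes under median-of-ratios or upper-quartile scaling; the genes were chosen for this difference, and a pseudocount, the replicate block or a left-out library cannot create an overlap. With a minimum of 1 in at least 3 libraries, 9 were left, Plg falling below it. The sum of Serpina1a to Serpina1d in the Noggin-deficient libraries averaged 13, and 14.0 under median-of-ratios and 13.7 under upper-quartile scaling (12.8 to 13.2 with a library left out). Of 3913 genes, 3836 were called, 1484 higher and 2352 lower. Against a 1.5-fold change 569 were called (165 higher and 404 lower), a stricter test by construction, and of the genes on the pathway and cell type lists 68, against 139. The number of lower calls was 1257 with median-of-ratios factors and 1331 with the length trend removed, an alternative chosen after seeing the data; the cause was not tested. With a library left out, 3458 to 3767 genes were called; a lone wild type library was then assumed to vary like the Noggin-deficient ones. The replicate numbers of the titles are not said to pair the libraries, and the differences between replicates 1 and 2 of the 2 groups correlated at -0.11 across genes. With the replicate block 3774 genes were called, 1469 higher and 2305 lower. The unknown unit and the 2 decimals limit what a value of 0 means.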
